A study of Caenorhabditis elegans with 2 samples.

Results

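The strong regions of the X chromosome are the X-linked members of the 2000 strongest DAF-12 regions in whole Caenorhabditis elegans larvae. They were chosen by the signal of the pooled replicates: of 30000 regions in the pooled list the 2000 of highest signal were kept, and 484 of these lay on X. They come from ChIP-seq, the sequencing of DNA precipitated together with a chromatin protein, here eGFP-tagged DAF-12 in strain OP222. Its genotype was unc-119(ed3) III with the integrated transgene wgIs222, an insertion of tagged daf-12. The labels give the antibody as daf-12 in one field and the target as eGFP-daf-12 in another, so whether endogenous DAF-12 was also precipitated cannot be told. There was 1 group, L3 larvae of unknown exact age with males and females pooled, in 2 samples labelled biological replicates 1 and 2. Both samples carry the transgene and the unc-119 mutation, and no untagged or control sample was analysed here. Whether the tagged protein, made beside the endogenous one from extra gene copies, binds as the endogenous protein does cannot be told from these samples. A signal here is the authors' own value per region, of unstated scale, and a summit is the position of the highest signal within a region. The strong X regions are set beside the 1516 strong autosomal regions and, for most measures, beside 2024 low-ranked X regions, those among the 10000 of lowest rank in the same list.

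DAF-12 is a nuclear hormone receptor. It binds the steroid dafachronic acid, and in worms it decides between reproductive growth and arrest as a dauer larva and sets the timing of larval cell fates, in part through microRNAs of the let-7 family. The X chromosome of C. elegans is also the target of dosage compensation, in which a condensin complex binds both X chromosomes of hermaphrodites and lowers their transcription. That complex is recruited at sites on X that carry a short motif, whose core reads CGCAGGG, and it spreads from them along the chromosome.

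Of the 15 highest-ranked X regions, 8 held the letters of that core near the summit. Windows reaching 50 bp to either side of the summit are shown for the 6 highest-ranked X regions and for the region of rank 39. The first 6 were taken by rank. Rank 39 was taken as the highest-ranked within 500 bp of a tRNA start, 357 bp from that of the tRNA-Arg gene C18A11.t2. Most of these windows carry the sequence by which the top of the X list differed from the rest. They are read 5′ to 3′ on the plus strand of ce11 (WBcel235), from the RefSeq sequence of that assembly. Capitals mark CGCAGGG, or CGAAGGG, a variant with 1 other base that was noticed only after these windows had been read, on either strand (CCCTGCG and CCCTTCG on the minus strand). The windows are chrX:11094171-11094271 (rank 1), chrX:14525861-14525961 (rank 5), chrX:6296549-6296649 (rank 7), chrX:13700845-13700945 (rank 8), chrX:12363086-12363186 (rank 10), chrX:4209238-4209338 (rank 11) and chrX:8036350-8036450 (rank 39).
rank 1: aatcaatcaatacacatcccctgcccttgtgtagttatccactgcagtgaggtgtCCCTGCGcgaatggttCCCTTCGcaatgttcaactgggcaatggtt
rank 5: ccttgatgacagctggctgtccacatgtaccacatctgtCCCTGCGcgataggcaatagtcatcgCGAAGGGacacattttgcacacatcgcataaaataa
rank 7: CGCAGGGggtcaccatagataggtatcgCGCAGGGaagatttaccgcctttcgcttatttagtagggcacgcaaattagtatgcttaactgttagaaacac
rank 8: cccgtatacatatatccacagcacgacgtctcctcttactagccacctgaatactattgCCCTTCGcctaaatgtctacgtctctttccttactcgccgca
rank 10: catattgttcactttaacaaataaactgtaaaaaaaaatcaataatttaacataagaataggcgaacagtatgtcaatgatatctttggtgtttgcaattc
rank 11: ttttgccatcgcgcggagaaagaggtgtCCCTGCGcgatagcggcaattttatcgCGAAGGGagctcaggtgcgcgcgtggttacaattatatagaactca
rank 39: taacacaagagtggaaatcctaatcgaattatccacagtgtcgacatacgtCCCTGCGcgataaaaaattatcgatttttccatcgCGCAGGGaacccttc

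In the region of rank 1 the core lay 5 to 11 bp and the variant 21 to 27 bp to the right of the summit, both on the minus strand. Rank 5 and rank 11 had the core on the minus strand and the variant on the plus strand, with the core ending 5 bp left of the summit at rank 5 and 16 bp left of it at rank 11. Rank 7 and rank 39 each had the core at 2 places, at rank 39 on opposite strands. The region of rank 8 had the variant only, and that of rank 10 had neither. The next-ranked region within 500 bp of a tRNA start, of rank 167, is not shown and also had neither. A match to these letters is a description of the sequence and does not show which protein was bound.

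Over all members, CGCAGGG on either strand was found in 12 of the 484 windows of strong X regions (2.48%, exact 95% interval 1.29 to 4.29), against 4 of 1516 windows of strong autosomal regions (0.264%). It was found in 2 of 2024 windows of low-ranked X regions (0.0988%) and in 273 of all 175435 adjoining windows of the same length on X (0.156%). The difference between strong X and strong autosomal regions was 2.22 percentage points (Newcombe 95% interval 1.08 to 4.03). The 12 windows were concentrated among the highest ranks: their median rank was 25.5, the lowest-ranked was at 247, and 8 of the 15 highest-ranked X members were among them. The authors also kept a stricter list by the irreproducible discovery rate (IDR), which asks how well ranks repeat between replicates. Among strong X regions it took every member down to rank 148 and none from rank 155 on. A split by this list thus repeats the concentration at the highest ranks and is no separate measure. Of the 43 members in the IDR list, 11 held the core (25.6%, 13.5 to 41.2). Of the 107 IDR peaks on autosomes 0 held it, which allows a share of up to 3.39% by the exact interval. Among the other 441 strong X regions 1 held it (0.227%), close to the share over all windows of X.

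**Figure D1:**
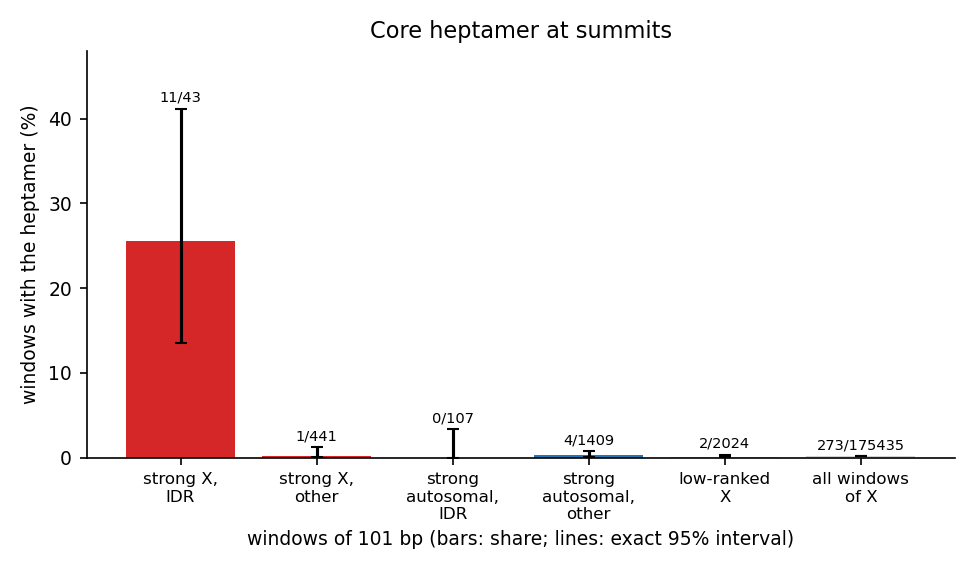
Share of windows reaching 50 bp to either side of the summit that held the dosage-compensation core heptamer on either strand, in percent, with exact 95% intervals and the counts above each bar. Strong X regions that were IDR peaks, all of ranks 1 to 148, stood at 25.6%. The other 5 groups drawn (other strong X regions, strong autosomal IDR peaks, other strong autosomal regions, low-ranked X regions and all windows of X) each stood below 0.3%.

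The same held in each replicate's own list. In the 2000 strongest regions of replicate 1, 13 of 476 windows on X and 7 of 1524 on autosomes held the core. In those of replicate 2 the counts were 11 of 476 on X and 0 of 1524 on autosomes. All 12 members with the core had a summit within 100 bp in both replicates, and their signals ran from 11.8 to 78.9 in replicate 1 and from 8.13 to 102.1 in replicate 2. With the variant CGAAGGG also counted, 19 of 484 strong X windows (3.93%) matched, against 7 of 1516 strong autosomal windows (0.462%) and 815 of the 175435 windows of X (0.465%). Of the 15 highest-ranked X members 11 then matched.

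Regions with the core mostly lay away from coding starts, as did strong X regions in general. Of the 465 members with neither the core nor the variant, 102 lay within 500 bp of a coding start, and their median distance was 1463 bp. Whether the 12 regions with the core differ from these was not tested. The nearest coding start was at a median of 2983 bp from the summits of the 12. Of these, 1 lay within 500 bp of a start, that of rank 247, 314 bp upstream of tatn-1, which encodes a tyrosine aminotransferase. The region of rank 1 was intergenic, 3965 bp from the start of W02H3.3, with a signal of 76.9 in replicate 1 and 102.1 in replicate 2. That of rank 7 lay in an intron of mom-1, which encodes a Porcupine-like protein needed for Wnt secretion, with 58.2 in replicate 1 and 53.5 in replicate 2. That of rank 39 lay 4913 bp from the start of xol-1, the switch gene that sets sex and with it dosage compensation, with 29.5 in replicate 1 and 35.3 in replicate 2. These 3 regions were high in both replicates. The region of rank 28 was not: it lay in a coding exon of pks-1, a polyketide synthase gene, with 46.8 in replicate 1 and 8.13 in replicate 2. Binding of the dosage compensation complex itself was not measured here, and the worms were of mixed sex.

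For the other 8 motifs searched, the share of strong X windows was 0.726 to 1.83 times that of all windows of X, against 15.9 times for the core. AGTGCA, a half-site of the kind DAF-12 binds, was in 6.40% of strong X windows, 5.67% of strong autosomal windows, 4.15% of low-ranked X windows and 4.22% of all X windows. AGTGTG was in 5.37%, 5.21%, 3.16% and 3.99% of the same groups. Strong X regions thus exceeded low-ranked X regions by 2.25 percentage points for AGTGCA (0.17 to 4.92) and by 2.21 for AGTGTG (0.32 to 4.69), while for both the interval of the difference from strong autosomal regions included 0. AGTACA was in 3.31% of strong X windows, 5.80% of strong autosomal windows, 4.89% of low-ranked X windows and 4.44% of all X windows. Its difference between strong X and strong autosomal regions was −2.50 percentage points (−4.30 to −0.23). With windows reaching 100 bp to either side, strong X regions stood at 9.09% and all X windows at 8.87%, the reverse of their order at 50 bp. No autosomal share is given at that width. GAGAG, a repeat common in worm promoters, was in 19.0% of strong X windows, 22.7% of strong autosomal windows, 11.6% of low-ranked X windows and 12.6% of all X windows. The remaining motifs AGTTCA and AGGTCA were in 6.61% and 2.27% of strong X windows and in 7.45% and 2.64% of all X windows, and TTATCA was in 7.23% of strong X windows and 9.96% of all X windows. Mean GC content of the windows was 36.1% for strong X regions, 36.6% for strong autosomal regions and 33.8% for low-ranked X regions. Its part in the motif shares was not tested.

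The region of rank 32 is shown because it is the highest-ranked strong X region with AGTGCA or AGTGTG and lies in the heterochronic gene lin-14. Its window, chrX:11478896-11478996 on the plus strand of ce11, has capitals at AGTGCA and at AGTGTG and at AGTACA and at GAGAG on either strand.
rank 32: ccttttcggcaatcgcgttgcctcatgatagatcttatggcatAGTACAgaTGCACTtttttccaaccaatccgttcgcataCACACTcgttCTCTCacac

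Here AGTACA and AGTGCA lay on opposite strands 7 to 2 bp left and 1 to 6 bp right of the summit, which the pair thus flanked. AGTGTG lay 32 to 37 bp and GAGAG 42 to 46 bp to the right, each on the minus strand. The region had a signal of 35.0 in replicate 1 and 29.9 in replicate 2.

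X held more of the strong regions than of the genome. The 484 members were 24.2% of the 2000 strongest regions (exact 95% interval 22.3 to 26.1). X is 17.7% of the nuclear genome by length. It held 21.1% of all 30000 regions of the pooled list and 20.2% of the 10000 of lowest rank. Each replicate alone gave 476 of 2000 (23.8%). The difference between the 2000 strongest and the low ranks was 3.96 percentage points (1.97 to 6.04). The rank that chose the members is also the measure here, so these shares are a description.

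Within the 2000 the X share was highest near the top in each replicate's own list. In 10 successive classes of 200 ranks the pooled list held 27.0, 24.0, 28.0, 22.5, 24.0, 24.5, 22.0, 25.5, 23.5 and 21.0% on X. Ranks 1 to 200 exceeded the last 200 of the 2000 by 6 percentage points in the pooled list (−2.38 to 14.28), an interval that includes 0. The difference was 10.5 in replicate 1 (1.82 to 18.98), where the interval excludes 0, and 7.5 in replicate 2 (−1.08 to 15.94), where it includes 0. The highest class of each replicate's own list had the highest share, 32.0% in replicate 1 and 29.5% in replicate 2. In blocks of 2000 ranks the pooled share stood at 24.2, 23.2, 22.9, 22.45 and 23.05% over the first 10000 ranks and between 18.75 and 21.3% in every later block.

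**Figure D2:**
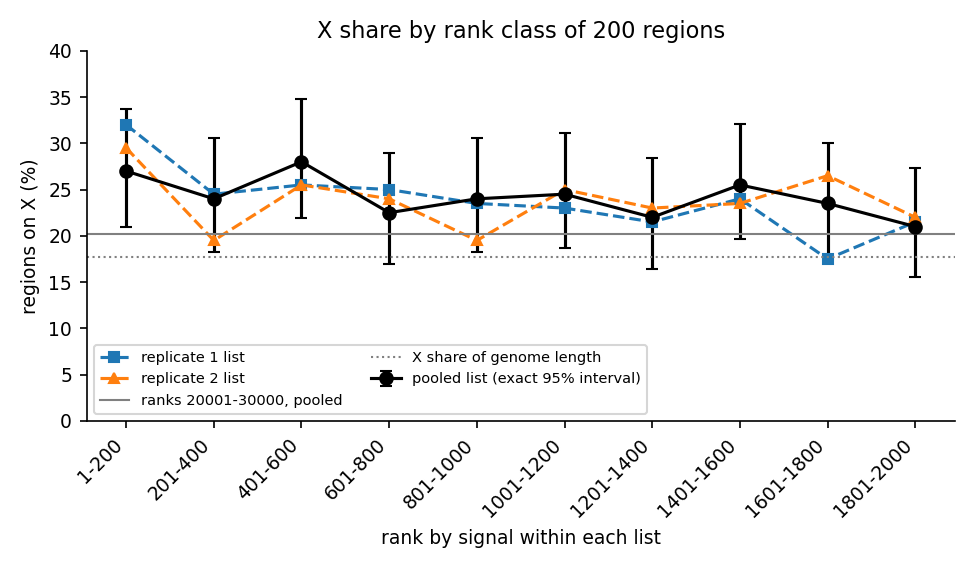
Percent of regions on X in classes of 200 ranks, for the pooled list with exact 95% intervals and for each replicate's own list. The replicates started at 32.0% and 29.5% in the first class, and 27 of the 30 shares lay above the 20.2% of the low ranks.

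Strong X regions lay farther from coding starts than strong autosomal regions. A start of a protein-coding transcript was within 500 bp of the summit for 104 of 484 strong X regions (21.5%, 17.9 to 25.4), against 502 of 1516 strong autosomal regions (33.1%, 30.7 to 35.5), a difference of −11.6 percentage points (−15.8 to −7.11). Over all X regions of the pooled list the share was 20%. The median distance was 1489 bp for strong X regions and 1022 bp for strong autosomal regions, and the greatest was 15243 bp, for the pks-1 region. X is poorer in genes, with 154 coding genes per Mb against 209 on autosomes, and 18.8% of the bases of X lie within 500 bp of a coding start, against 24.0% of the bases of autosomes. Strong X regions stood 1.38 percentage points above low-ranked X regions (−2.49 to 5.61), an interval that includes 0. On autosomes the same difference, strong minus low-ranked, was 7.14 percentage points (4.62 to 9.73). The lower share on X held in each replicate's own list, with differences of −8.98 in replicate 1 and −10.9 in replicate 2, and in all 10 rank classes. In the highest class, ranks 1 to 200, 22.2% of strong X and 47.9% of strong autosomal regions lay within 500 bp of a start.

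**Figure D3:**
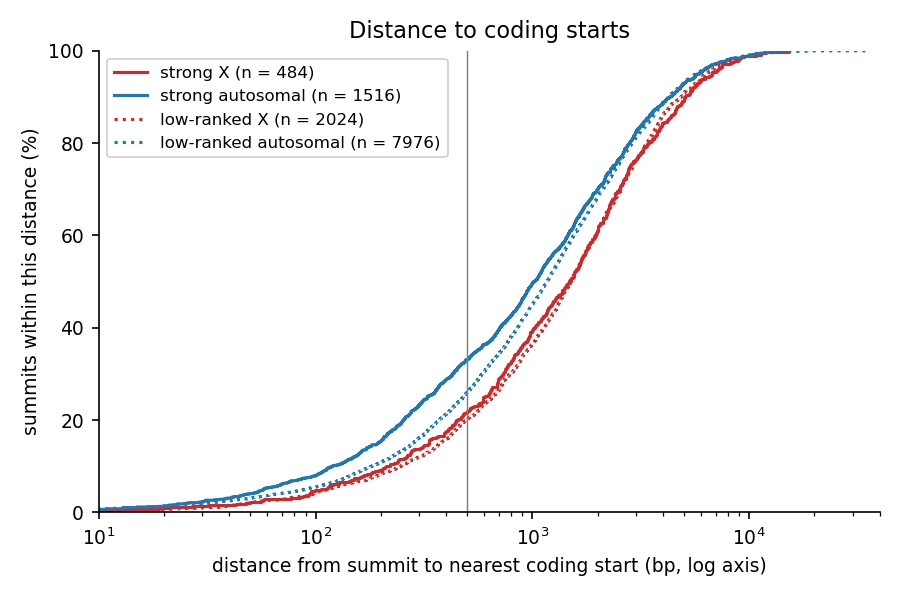
Cumulative percent of summits by distance to the nearest coding start in bp, on a log axis, for strong X, strong autosomal, low-ranked X and low-ranked autosomal regions. At the grey line at 500 bp the strong X curve stood at 21.5% and the strong autosomal curve at 33.1%, and the strong X curve ran close to that of low-ranked X regions.

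Classes by annotation used coding genes only. By these, 125 strong X regions (25.8%) lay outside coding genes and not within 2 kb upstream of one. The share was 18.4% for strong autosomal regions, a difference of 7.42 percentage points (3.20 to 11.9). Some of the 125 lay at tRNA or microRNA genes, such as that of rank 182 at a tRNA-Pro gene. Low-ranked regions showed a like gap, with 23.0% on X and 15.8% on autosomes. Introns held 158 of the strong X regions (32.6%, against 30.6% of strong autosomal and 33.2% of low-ranked X regions). Stretches up to 2 kb upstream of a coding gene held 134 (27.7%, against 31.5% and 22.2%). Coding exons held 42 (8.68%, against 11.8% and 15.7%). For introns, upstream stretches and coding exons the interval of the difference from strong autosomal regions included 0. Of the 296 strong X regions within 2 kb of a coding start, 59.5% lay on its upstream side, against 59.8% of such strong autosomal regions and 48.8% of such low-ranked X regions.

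A share of strong X regions sat at tRNA genes, which RNA polymerase III transcribes from promoters within the gene. A tRNA start was within 500 bp of 17 of the 484 summits (3.51%, 2.06 to 5.56), against 13 of 1516 strong autosomal summits (0.858%) and 27 of 2024 low-ranked X summits (1.33%). Over all X regions of the list the share was 1.88%. X carries 276 of the 612 annotated tRNA genes (45.1%), and counted from the genes the gap was narrower: 21 of 276 tRNA genes on X (7.61%, 4.77 to 11.4) and 16 of 336 on autosomes (4.76%, 2.75 to 7.62) had a strong region within 500 bp. These intervals overlap. Of the 17 members, 14 had the summit within 100 bp of the tRNA start, 7 upstream and 7 downstream of it, and the 17 tRNA genes covered 12 amino acids.

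Of the 17 members at tRNA genes, 10 had a summit in both replicates, 6 in 1 replicate and 1 in neither, a share close to the 61.6% found in both over all 484 members. The region of rank 182, 62 bp downstream of the start of the tRNA-Pro gene Y59E1B.t2, had a signal of 19.3 in replicate 1 and 11.6 in replicate 2. That of rank 276, 29 bp downstream of the start of the tRNA-Asp gene F52H2.t1, had 14.2 in replicate 1 and 9.71 in replicate 2, and that of rank 781, 14 bp upstream of the tRNA-Gln gene R04A9.t1, had 22.5 in replicate 1 and no summit in replicate 2. tRNA genes come in many near-identical copies, and the sources used here do not give how reads that match several copies were treated. The window of rank 182, chrX:1880776-1880876 on the plus strand of ce11, is shown because it contains the tRNA gene's own B box, an internal promoter element. Capitals mark GTTCGANNC, the letters searched for this element, here on the minus strand.
rank 182: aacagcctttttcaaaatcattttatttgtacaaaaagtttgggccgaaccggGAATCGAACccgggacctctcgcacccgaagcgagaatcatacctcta

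These letters were in 6 of 484 strong X windows (1.24%), 12 of 1516 strong autosomal windows (0.792%), 13 of 2024 low-ranked X windows (0.642%) and 0.677% of all windows of X. Of the 6 strong X windows 5 were within 500 bp of a tRNA start.

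A start of a microRNA was within 2 kb of 9 of the 484 summits (1.86%, 0.854 to 3.50), against 35 of 1516 strong autosomal summits (2.31%), a difference of −0.45 percentage points (−1.70 to 1.31), and 20 of 2024 low-ranked X summits (0.988%). Counted from the genes, 17 of the 74 microRNA genes of X had a member within 2 kb, since clustered genes share one region. The highest-ranked was that of rank 148 near mir-2221, with a signal of 17.9 in each replicate, followed by that of rank 182, 847 bp from mir-4921, which is also the tRNA-Pro region above. That of rank 223 lay 597 bp from mir-62, with 10.4 in replicate 1 and 20.2 in replicate 2. At let-7, the microRNA that promotes the switch from larval to adult fates, the region of rank 1812 had 8.60 in replicate 1 and 6.29 in replicate 2. Its summit lay 52 bp downstream of the nearest annotated let-7 start, of a precursor or primary transcript. At mir-84, of the let-7 family, the region of rank 682 lay 524 bp upstream, with 13.0 in replicate 1 and no summit in replicate 2. Both were far weaker than the strongest X regions.

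The replicates are the only measure of error. A summit within 100 bp in both per-replicate lists was found for 298 of the 484 members (61.6%, 57.1 to 65.9), against 933 of 1516 strong autosomal regions (61.5%), a difference of 0.03 percentage points (−5.0 to 4.92). Over all X regions of the pooled list the share was 14.9%, and over all 30000 regions 13.9%. As the pooled rank is built from both replicates, this excess is partly fixed by the choice of members. A summit in replicate 1 only was found for 67 members, in replicate 2 only for 106, and in neither for 13. Among members of ranks 1 to 200 the share found in both was 90.7%. It lay between 36.4 and 75% in the lower classes of 200.

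A choice made in one replicate and read in the other avoids that. Of the 476 strongest X regions of replicate 1, 120 had a summit in the list of replicate 2 (25.2%, 21.4 to 29.4), against 25.5% of its strongest autosomal regions and 13.2% of its low-ranked X regions. Of those of replicate 2, 132 of 476 had one in replicate 1 (27.7%, 23.8 to 32.0), against 24.6% of its strongest autosomal regions and 12.8% of its low-ranked X regions. In both directions 51 (10.7%) were among the 2000 strongest of the other replicate. Of the 484 members themselves 56 (11.6%) were in the 2000 highest of both replicates and 184 (38.0%) in those of neither.

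Where both replicates had a region, their signals often differed. Over the 298 such members the SD of the log2 ratio, replicate 1 over replicate 2, was 0.74, against 0.71 over the 933 autosomal ones. A difference of more than 2-fold was seen for 59 of the 298 members and for 180 of the 933 autosomal ones. Spearman's rho between the signals was 0.109 across these members and −0.006 across the autosomal ones. Pearson's r on the log2 scale was 0.484 and 0.286. These values describe regions that share the same 2 libraries. The pooled signal that chose the regions is built from both replicates, so the choice itself bears on these values. How far they show poor agreement cannot be told. The highest signal in each replicate was that of a region with the core. After the pks-1 region (log2 ratio 2.53), the highest ratios were those of rank 272, 211 bp upstream of atf-6, which encodes a transcription factor of the unfolded protein response (20.8 in replicate 1 and 5.83 in replicate 2), and of rank 387, 822 bp upstream of spc-1, the alpha spectrin gene (19.7 and 6.41). The lowest was that of rank 316 in daf-12 (4.93 and 19.95, log2 ratio −2.02). The other 2 of the 3 lowest were those of rank 877 (4.91 and 19.4) and of rank 1066, in cept-1 and nhr-27 (5.07 and 18.4).

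**Figure D4:**
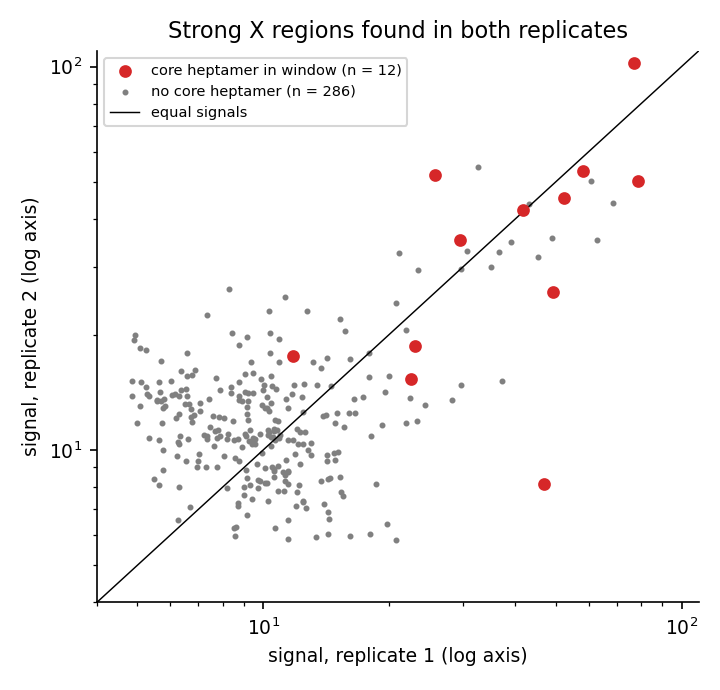
Signal in replicate 1 against replicate 2, both on log axes, for the 298 strong X regions with a summit within 100 bp in both. The 12 regions with the core heptamer (red) lay mostly at the upper right, up to 78.9 in replicate 1 and 102.1 in replicate 2, and most others below 20 in each.

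Strong X regions were spread over the whole chromosome, with an excess at daf-12 itself. The first summit lay at position 350115, and the median gap between neighbouring summits was 24233 bp. The longest such gap was 228686 bp, between positions 3448430 and 3677116. The stretch from the left end of X to the first summit was longer. In 10 equal parts of X the counts were 30, 43, 28, 63, 38, 42, 81, 62, 48 and 49, against 181 to 240 low-ranked X regions per part. Part 7 holds daf-12 and lin-14. In the replicates' own lists it was also the fullest, with 68 and 63 regions, counts that include the daf-12 locus. With regions within 50 kb of daf-12 left out, part 7 held 57 in the pooled list. That was fewer than part 4 (63) or part 8 (62).

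Within 50 kb of daf-12 (X, 10635908 to 10666875, plus strand) lay 24 members, where the mean over X is 3.58 per window of that width, and 9 low-ranked regions against a mean of 14.96. Of the 24, 20 were inside the gene and 14 had a summit in both replicates. The highest was that of rank 40, in daf-12, with 29.7 in each replicate. That of rank 126 had 16.1 in replicate 1 and 17.3 in replicate 2, and the next inside the gene, of rank 205, had 19.6 and 14.1. The only groups of 3 or more members chained by gaps of at most 1 kb were both here, 5 between positions 10638713 and 10640654 and 3 between 10635865 and 10637661. None of the 24 windows held the dosage-compensation core. The strain carries further copies of daf-12 in its transgene, and signal from those copies and from the locus on X cannot be told apart. Without this locus, 4.30% of the strong X regions lay within 1 kb of another, against 7.44% with it and 5.01% of strong autosomal regions, and the X share of the 2000 was 23.25%.

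**Figure D5:**
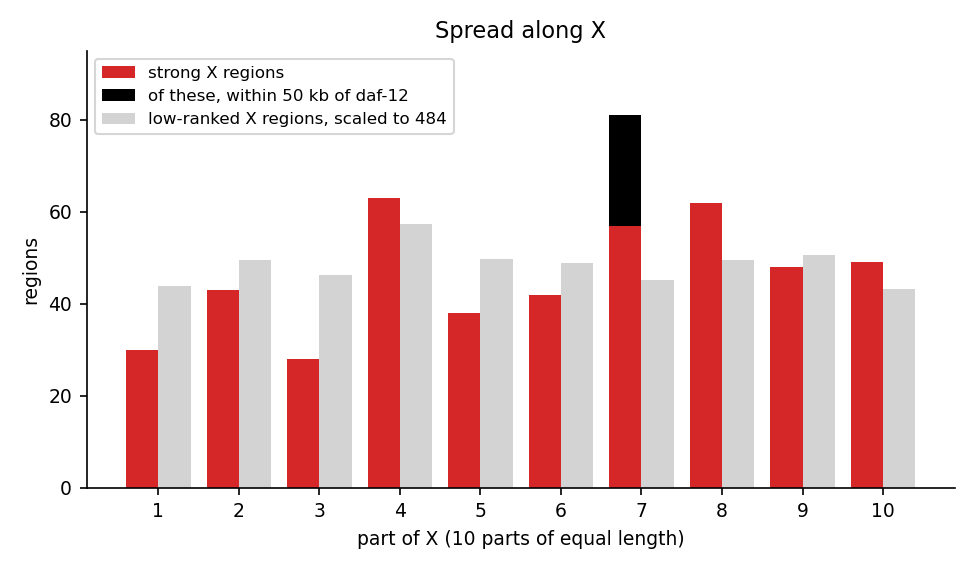
Number of strong X regions in each of 10 equal parts of X, with those within 50 kb of daf-12 in black, beside low-ranked X regions scaled to the same total of 484. Part 7 held 81, of which 24 lay at daf-12, and parts 1 and 3 held 30 and 28.

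A start of 312 of the 2731 coding genes of X (11.4%) lay within 2 kb of a strong X region. The members were read against gene lists chosen with earlier results of these data known. Of the developmental timing genes on X, 7 of 7 had a member within 2 kb, 6 within 1 kb and 3 within 500 bp. lin-14, a transcription factor of early larval fates that the microRNA lin-4 represses, had regions of rank 32, described above, and of rank 57 (21.1 in replicate 1 and 32.6 in replicate 2), and of rank 114, 151 bp from a start, with 22.0 in replicate 2 and no summit in replicate 1. kin-20, a casein kinase homologue, had the region of rank 159, 693 bp inside the gene, with 24.5 in replicate 1 and no summit in replicate 2. hbl-1, a hunchback-like zinc finger gene, had that of rank 1126, with 14.5 in replicate 2 and no summit in replicate 1. alg-1, an Argonaute of the microRNA pathway, had that of rank 1028 and no summit in either replicate. Of the 7, only daf-12, lin-14 and let-7 thus had a summit within 100 bp in both replicates for their highest-ranked region. A region lying farther off in the other replicate would not be counted by this rule. daf-12 has 10 annotated coding transcripts, each start of which was counted.

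Other lists had fewer, counted in the same way by starts within 2 kb of a member. Of the 4 dauer and sterol genes of X only daf-12 had a member within 2 kb. The nearest to daf-9, the cytochrome P450 that makes dafachronic acid, was 2593 bp away. Of 7 genes of sex determination and dosage compensation 1 had a member, fox-1, an RNA-binding X signal element, with 8.19 in replicate 1 and 7.95 in replicate 2 at rank 1175. The nearest members to sdc-2, which starts the loading of the dosage compensation complex, and to sex-1, a nuclear receptor that counts X chromosomes, were 30650 and 13082 bp away. None of 3 Wnt, 5 vitellogenin and 13 flp neuropeptide genes had a start within 2 kb of a member. Of the Wnt genes, mom-1 holds the region of rank 7 in an intron, 3487 bp from its start.

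By starts within 2 kb, nuclear hormone receptor genes had a member at 4 of 23 (17.4%). The region of rank 1066, inside nhr-27, is not counted by this rule. The highest of the 4 was at nhr-40, 332 bp from a start, with 22.0 in replicate 1 and 11.7 in replicate 2. nhr-14, nhr-48 and nhr-3 had regions of ranks 663, 899 and 1806, each with a summit in replicate 2 only. Collagen genes had one at 7 of 27 (25.9%), but some shared a region: col-168 and col-169 both that of rank 1592, col-183 and col-184 both that of rank 1519. The highest at a collagen gene, of rank 229 near col-181, lay inside the tRNA-Lys gene W03G11.t1, 61 bp downstream of its start. The start of col-181 was farther, at 1012 bp. unc genes had a member at 4 of 16, ceh homeobox genes at 1 of 18 (ceh-54), nlp neuropeptide genes at 3 of 22 and insulin-like genes at 1 of 2. The last, ins-39, had the region of rank 43, 588 bp upstream, with 21.5 in replicate 2 and no summit within 100 bp in replicate 1. Among nlp genes the highest was nlp-14, with a region 48 bp upstream, 20.1 in replicate 1 and no summit in replicate 2.

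The choice of 2000 regions has no step in signal behind it. The 3 strong X regions just inside, of ranks 1992, 1995 and 1996, had pooled signals of 19.049, 19.047 and 19.045, and the 3 X regions just outside, of ranks 2007, 2010 and 2012, had 19.027, 19.023 and 19.021. The members' pooled signals ran from 19.0 to 177.5 with a median of 21.8, against a median of 21.5 for strong autosomal regions.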

How the data were processed

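The signal of each region was deposited by the authors as one value per region of their lists, made from the reads with a control alignment per the deposited notes, once per replicate and once with both pooled. The caller, its version and the scale of the signal are not given in the sources used here, and the lists give no read counts. The depth is thus unknown, and intervals cover the number of regions only, not the spread between animals.

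Regions were ranked by signal in the pooled ce11 list. The members, gene lists, motifs and comparisons were chosen with earlier results of these data known. Starts were 5′ ends of coding, microRNA (precursor or primary) and tRNA transcripts in Ensembl release 115 on WBcel235, with symbols from RefSeq by WormBase gene ID. For all 41 listed symbols the annotation had a gene. A region counted as found in a replicate where that list had a summit within 100 bp. No summit in a replicate means none within that distance. Classes used coding genes only. A summit with several annotations was classed as exonic before intronic, and as upstream to 2 kb before other intergenic. Motifs were searched on both strands within 50 bp of the summit. Shares have exact (Clopper-Pearson) 95% intervals and differences Newcombe intervals; no test was run, as there is 1 group and the members were chosen by their signal.

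Regions named were the 15 of highest rank, the highest-ranked near each listed gene (up to 4 for lists by symbol stem), the 3 highest and 3 lowest replicate ratios, chained groups and those at the threshold; those named at the core motif, tRNA and microRNA genes, and the daf-12 regions after the highest, were named after their values were seen. Counts with CGAAGGG or GCGCAGGG were added after the sequences were seen. The ce10 pooled list served as an alternative only. Scripts used Python 3.11.15, numpy 2.4.6, pandas 2.3.3, scipy 1.17.1, statsmodels 0.14.6 and matplotlib 3.10.9 and were tested on simulated data.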

Additional observations from a re-analysis of the deposited data

How the results depend on the processing

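No value changed sign under any alternative run, but the order of strong X windows and all windows of X turned for AGTACA, from lower at 50 bp to 9.09% against 8.87% at 100 bp. The share of strong X regions within reach of a coding start was 11.6% within 250 bp, 39.5% within 1 kb and 61.2% within 2 kb, while the difference from autosomes stayed between −13.6 and −7.95 percentage points in all settings. The share found in both replicates was 69.7% of the X regions among the 1000 strongest, 51.6% among the 4000 strongest, 38.0% with a tolerance of 50 bp, 77.9% with 200 bp and 11.6% when both had to rank in their 2000 highest. Members close to another were 4.30% without the daf-12 locus, 3.72% within 500 bp and 17.6% within 2 kb. X genes near a member were 3.84% within 500 bp and 6.96% within 1 kb. Of the planned settings for these results, 13 moved the value, all given here, and 44 kept it within its interval or the margin set for it, among them the pooled ce10 list (X share 24.25%). From 1 replicate alone the X share was 23.8% with either replicate, the coding share ran from 19.7 to 22.1%, the tRNA share from 2.52 to 3.99% and the share close to another from 5.46 to 8.40%. For the share of single motifs, other window widths or letters moved 14 of 20 values. The change of the X share with rank was 12 points (−0.46 to 23.98) with classes of 100 ranks. The core stood at 2.07% within 25 bp of the summit and 3.31% within 100 bp. GCGCAGGG, the core with 1 more base, was in 10 of 484 strong X windows. No paired analysis was possible because the design has 1 group. Regions are not replicates, and the unknown depth leaves weak regions without a counting error.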
